A study of Mus musculus with 4 samples.

Results

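The 10 genes described here encode transcription regulators that act in male germ cells from the pachytene stage of meiosis to the spermatid. They were taken by name from a table of 44509 named genes: Mybl1, Tcfl5 and Ovol2 as regulators of the pachytene stage, Rfx2, Sox30, Crem, Fhl5 and Tbpl1 as regulators of spermatids, and Taf7l and Spz1 as germ cell regulators placed in neither class. RNA was sequenced from mouse testis in 4 libraries. Busulfan 1 and busulfan 2 came from mice made oligozoospermic with busulfan, an alkylating agent toxic to dividing germ cells. Cus-1 1 and Cus-1 2 came from such mice that were then treated with Cus-1, a resin glycoside from a cuscutae extract, so all 4 libraries carry the busulfan injury and no untreated testis is compared here. Nothing is given in the sources used here on strain, age, doses or times, nor is it stated whether the 2 libraries of a group came from separate animals, so p-values measure only the spread between these libraries. The group of each library rests on its source label, since the titles begin with BPA for the busulfan libraries and with CUS2 for the treated ones and neither prefix is explained.

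Spermatocytes in the pachytene stage and round spermatids switch on large sets of genes that other cells keep silent, and they do so with their own versions of common transcription factors. A-MYB, the product of Mybl1, switches on genes of pachytene spermatocytes, among them piRNA pathway genes. RFX2 and SOX30 act on the genes of early spermatids. CREM and the TBP-like factor TBPL1 are needed for the late genes that package sperm chromatin and build the tail. FHL5 (also called ACT) is a LIM-only coactivator of CREM.

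Each of the 10 regulators had higher values in Cus-1 1 and Cus-1 2 than in either busulfan library, which held for 36.6% of the 19837 tested genes. The log2 fold change, Cus-1 minus busulfan on the log2(FPKM + 1) scale, ran from 0.40 for Mybl1 to 1.28 for Fhl5, with a median of 0.87 against 0.04 over all tested genes. In whole testis, more germ cells of a stage and more regulator RNA per cell cannot be told apart. FPKM stands for fragments per kilobase of transcript, scaled to 1e+06 mapped fragments. No regulator passed the adjusted threshold of 0.05, nor did any tested gene (0% called), and 8 of the 10 had an unadjusted limma p under 0.05 in the higher direction, as did 18.0% of all tested genes, while 9.96% had one in the lower direction. The limma adjusted p of the 10 genes lay between 0.152 and 0.210. With 2 libraries against 2, exact permutation of the labels gives a two-sided p of 0.333 at the least for any gene, so the test leans on the spread pooled across genes.

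**Figure D1:**
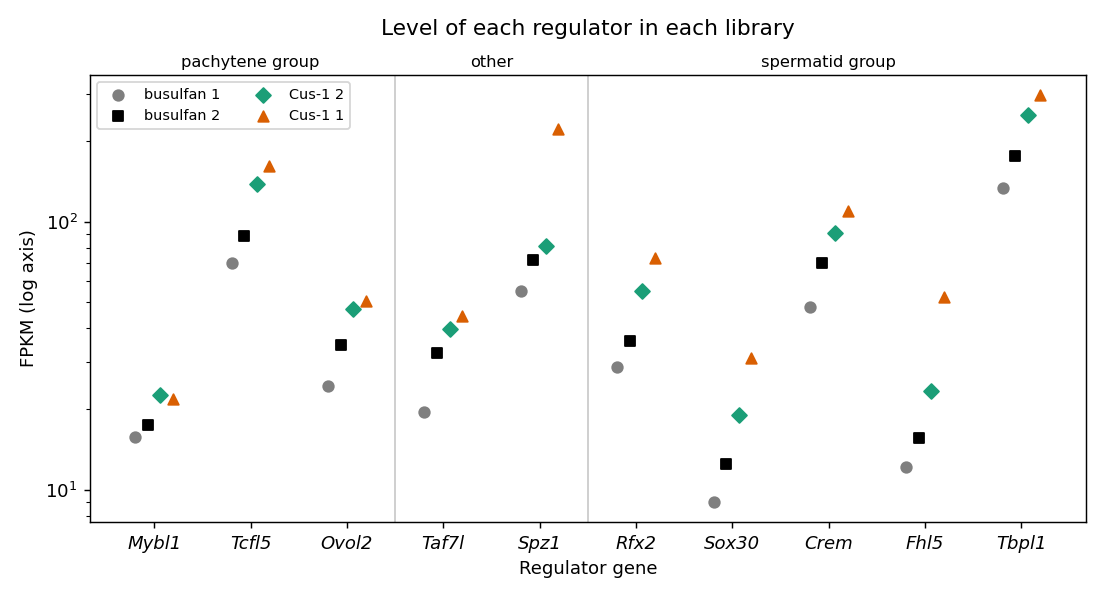
Level of the 10 regulators in each library, in FPKM on a log axis, ordered by class along the x axis, with 1 point per library. For each gene both Cus-1 libraries lie above both busulfan libraries, and Cus-1 1 stands well above Cus-1 2 for Spz1 (221 against 81.2 FPKM) and Fhl5 (52.4 against 23.3 FPKM).

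Levels differed widely between the regulators. Tbpl1 was the most abundant in every library, with a mean of 214 FPKM over the 4 libraries, and Sox30 had the lowest mean, 17.8 FPKM. Between them came Tcfl5 (115), Spz1 (108), Crem (79.5), Rfx2 (48.4), Ovol2 (39.2), Taf7l (34.1), Fhl5 (25.9) and Mybl1 (19.3 FPKM). The ranges over libraries overlapped in all 9 pairs of neighbours in this order. Only 4 of those pairs kept their order in every library, so the order of close neighbours such as Tcfl5 and Spz1, or Mybl1 and Sox30, is not settled. The lowest value of any regulator was 9 FPKM (Sox30 in busulfan 1), so each passed the filter on low values in busulfan libraries as well as in treated ones.

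Of the pachytene regulators, Tcfl5 had the largest difference and Mybl1 the smallest. Tcfl5, a basic helix-loop-helix factor needed for male meiosis and spermatid development (chromosome 2, 180621956 to 180642708, mm10), measured 70.0 and 88.9 FPKM in the busulfan libraries and 161 and 138 FPKM in the Cus-1 libraries. The groups stood well apart, and the 2 libraries within each were close (log2 fold change 0.91, SE 0.19, limma adjusted p = 0.152). Ovol2, a zinc finger repressor (chromosome 2, 144305175 to 144332146), measured 24.5 and 34.7 FPKM in the busulfan libraries and 50.8 and 47.0 FPKM in the Cus-1 libraries. Its Cus-1 libraries were nearly level, while busulfan 1 lay below busulfan 2 (log2 fold change 0.73, SE 0.21, limma adjusted p = 0.152), and leaving out busulfan 1 took the fold change to 0.48. An antisense gene on the other strand, 1700108N11Rik, overlaps Ovol2 and was listed at 11.7 to 23.2 FPKM. Whether counting used strand is not stated, so the reads of the 2 genes may not be fully separated.

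Mybl1, which encodes A-MYB (chromosome 1, 9667415 to 9700209), measured 15.7 and 17.4 FPKM in the busulfan libraries and 21.9 and 22.5 FPKM in the Cus-1 libraries. Both groups were tight, and the step between them was small, at 0.40 on the log2 scale (SE 0.16, limma adjusted p = 0.181). Mybl1 was also the only one of the 10 in which Cus-1 2 was not below Cus-1 1. The other 9 followed the order busulfan 1, busulfan 2, Cus-1 2, Cus-1 1 from low to high, an order shared by 23.7% of all tested genes.

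Promoters of the regulators were read for letters bound by members of the same set, since A-MYB is known to act on other germ cell regulators, Rfx2 among them. RefSeq promoter sequences (build GRCm38.p6) were used for 8 of the 10 genes, and the 250 bases before each start were searched on both strands. Mybl1 and Crem were left out of this search, so whether their promoters hold any of these letters was not tested. The MYB core AACNGNC was present in 3 of the 8 genes, Tcfl5, Ovol2 and Rfx2, and in 27.7% of all 32851 windows of this length, so a match is common. The stretches shown were picked because they hold the matches, which are in capitals, and each is 5′ to 3′ on the strand of its gene. Mael, a piRNA pathway gene of the A-MYB programme, is shown for comparison. It was picked from genes of that list with the MYB core, which 6 of the 11 searched held. The E-box CACGTG was held by 7 of the same 11, Mael among them, against 6.02% of all windows. The letters CACGCG were held by 4 of the 11, against 7.62% of all windows. A gene with several windows counted when any of them held the letters. None of the stretches overlaps an annotated GENCODE gene, and each lies upstream of the transcript start.
Tcfl5, chr2:180642812-180642851, minus strand, 160 to 121 bases before the start: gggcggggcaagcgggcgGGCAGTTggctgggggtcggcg
Rfx2, chr17:56831109-56831198, minus strand, 190 to 101 bases before the start: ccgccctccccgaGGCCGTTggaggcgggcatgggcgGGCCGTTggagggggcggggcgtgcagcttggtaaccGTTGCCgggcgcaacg
Mael, chr1:166238825-166238864, minus strand, 120 to 81 bases before the start: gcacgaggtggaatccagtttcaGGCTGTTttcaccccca
Spz1, chr13:92576233-92576292, minus strand, 60 to 1 bases before the start: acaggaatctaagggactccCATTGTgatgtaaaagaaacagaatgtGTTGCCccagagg

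In the Rfx2 promoter the MYB core occurs 2 times with the same letters, and downstream of both lies GTTGCC, the core of the X-box that RFX factors bind. GTTGCC was also found in Spz1, close to its start, together with the SOX core ACAATG read on the other strand as CATTGT. The X-box core was present in 10.4% of all windows and the SOX core in 10.7%, and Rfx2 and Spz1 were the 2 regulators with the X-box core. The E-box CACGTG was present in Taf7l (6.02% of all windows) and the related letters CACGCG in Tcfl5 and Sox30 (7.62% of all windows). The full cAMP response element TGACGTCA, the palindrome that CREM binds, was present in 0 of the 8 regulators searched and in 1.55% of all windows. With so small a share, 0 of 8 tells little. Its core TGACG was present in Rfx2 and 17.8% of all windows. Of 7 late spermatid genes that need CREM, 6 had a window, and 0 of these held TGACGTCA or TGACG. Only these exact letters were searched, so CREM sites with other letters would have been missed. Fhl5 and Tbpl1 held none of the letters searched. These matches describe the sequence in this window and say nothing about binding in these testes.

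The regulators of neither class differed from each other in how steady they were. Taf7l, the X-linked germ cell version of the general factor TAF7 (chromosome X, 134460118 to 134476490), measured 19.5 and 32.5 FPKM in the busulfan libraries and 44.7 and 39.8 FPKM in the Cus-1 libraries. Busulfan 1 was the low library, and busulfan 2 lay closer to the treated libraries than to it in FPKM (log2 fold change 0.72, SE 0.27, limma adjusted p = 0.172). Without busulfan 1 the log2 fold change of Taf7l was 0.37. Spz1, a basic helix-loop-helix and leucine zipper factor of the testis (chromosome 13, 92574636 to 92576172), measured 55.1 and 72.3 FPKM in the busulfan libraries and 221 and 81.2 FPKM in the Cus-1 libraries. Its high value rests on Cus-1 1, since Cus-1 2 was only 1.12 times busulfan 2. The log2 fold change of Spz1 was 1.08 (SE 0.49, limma adjusted p = 0.210), and it was 0.36 without Cus-1 1 but 1.79 without Cus-1 2.

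Of the spermatid regulators, Fhl5 and Sox30 had the largest fold changes. Fhl5, the coactivator that binds CREM (chromosome 4, 25199908 to 25242876), measured 12.2 and 15.6 FPKM in the busulfan libraries and 52.4 and 23.3 FPKM in the Cus-1 libraries. The treated libraries differed from each other by more than Cus-1 2 differed from busulfan 2, though the groups did not overlap (log2 fold change 1.28, SE 0.40, limma adjusted p = 0.154). Sox30, needed for the start of the round spermatid programme (chromosome 11, 45980310 to 46017994), measured 9 and 12.5 FPKM in the busulfan libraries and 30.9 and 18.9 FPKM in the Cus-1 libraries. Its groups were apart, with Cus-1 1 again the highest (log2 fold change 1.12, SE 0.30, limma adjusted p = 0.152). Without Cus-1 1, Fhl5 was at 0.71 and Sox30 at 0.78 on the log2 scale.

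Rfx2, Crem and Tbpl1 were steadier between the treated libraries. Rfx2, a factor for ciliary and tail genes of spermatids (chromosome 17, 56775897 to 56831013), measured 28.8 and 36.0 FPKM in the busulfan libraries and 73.5 and 55.2 FPKM in the Cus-1 libraries. The lower Cus-1 library was still 1.53 times the higher busulfan library (log2 fold change 0.96, SE 0.21, limma adjusted p = 0.152). Tbpl1, the TBP-like factor without which spermatids do not mature (chromosome 10, 22703879 to 22731938), measured 133 and 177 FPKM in the busulfan libraries and 297 and 249.5 FPKM in the Cus-1 libraries. Its log2 fold change was 0.82 (SE 0.21, limma adjusted p = 0.152), with all 4 libraries in the common order.

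Crem was at 48.2 and 70.2 FPKM in the busulfan libraries and 109 and 90.5 FPKM in the Cus-1 libraries. The gap between the busulfan libraries was wider than that between the Cus-1 libraries, and the groups did not overlap (log2 fold change 0.76, SE 0.23, limma adjusted p = 0.152). The fold change of Crem was 0.495 on the log2 scale once busulfan 1 was left out. Crem has 32 annotated coding transcripts, among them activators, repressors and the short inducible repressor ICER. The table gives 1 value per gene, so which of these forms differed was not measured.

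**Figure D2:**
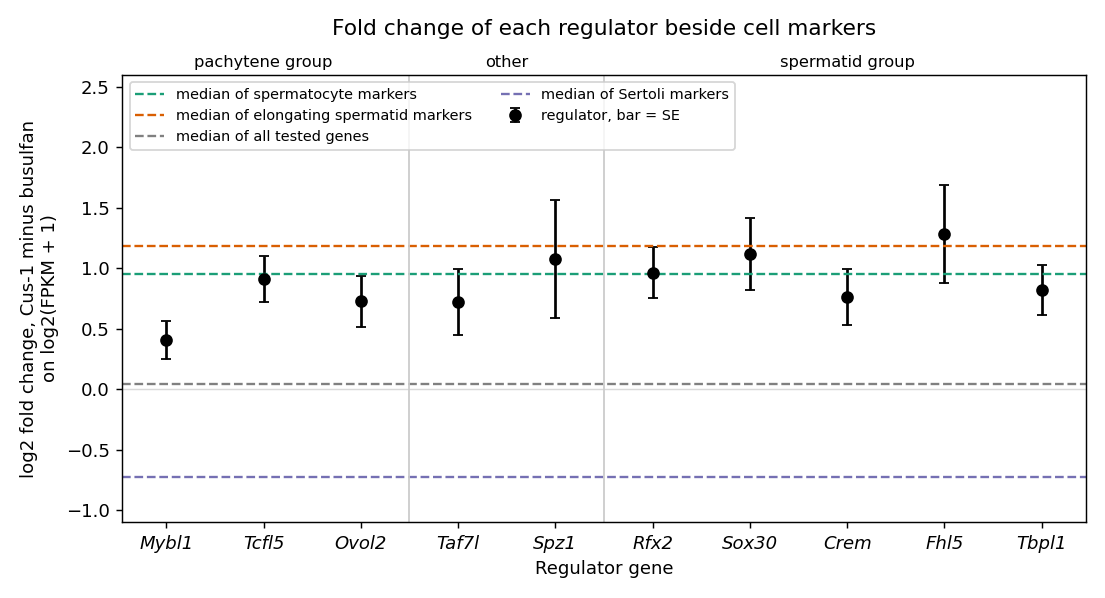
Log2 fold change of each regulator, Cus-1 minus busulfan on log2(FPKM + 1), with its limma SE (n = 2 per group). Dashed lines give the median of all tested genes (0.04) and of spermatocyte (0.95), elongating spermatid (1.18) and Sertoli (-0.73) markers, and the regulators lie from below the spermatocyte line (Mybl1, 0.40) to just above the elongating spermatid line (Fhl5, 1.28).

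The number of regulators past an unadjusted p of 0.05 hung on 2 libraries. It was 8 with all 4, 2 without busulfan 1 (Tcfl5 and Rfx2, with 5.84% of all tested genes) and 5 without Cus-1 1 (Tcfl5, Rfx2, Sox30, Fhl5 and Tbpl1, with 7.25%), a lone library being assumed to vary like the other group. All 10 fold changes stayed positive whichever library was left out, which follows from the groups not overlapping and adds no separate support.

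The 2 Cus-1 libraries lay further apart for some regulators than for others. Cus-1 1 minus Cus-1 2, in log2(FPKM + 1), was -0.04 for Mybl1, 0.11 for Ovol2 and 0.22 for Tcfl5. It was 0.25 for Tbpl1, 0.27 for Crem, 0.41 for Rfx2, 0.68 for Sox30 and 1.14 for Fhl5, so the pachytene regulators were at the low end, but Tbpl1 and Crem lay only slightly above Tcfl5, and no test between the classes was made. Taf7l was at 0.16, with the pachytene regulators, and Spz1 at 1.44, above all others. Cell markers were ordered by stage, with a median of 0.16 over 14 spermatocyte genes, 0.79 over 12 round spermatid genes and 1.42 over 12 elongating spermatid genes. For busulfan 2 minus busulfan 1 these marker medians ran the other way, at 0.65, 0.49 and 0.31. Among the regulators that difference was 0.14 for Mybl1, 0.31 for Rfx2, 0.33 for Fhl5, 0.49 for Ovol2, 0.54 for Crem and 0.71 for Taf7l, and the ranges of the pachytene and spermatid classes overlapped. Between the closest libraries of the 2 groups, Cus-1 2 minus busulfan 2, the differences ran from 0.17 for Spz1 to 0.63 for Tcfl5, against a median of 0.02 over all tested genes.

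As a summary of the classes, the mean log2(FPKM + 1) of the 5 spermatid regulators minus that of the 3 pachytene regulators was -0.03 in busulfan 1, 0.05 in busulfan 2, 0.54 in Cus-1 1 and 0.09 in Cus-1 2. The Cus-1 mean was 0.31 above the busulfan mean, but Cus-1 2 lay nearly level with busulfan 2, so the shift towards spermatid regulators was seen in Cus-1 1. No test of it was made.

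**Figure D3:**
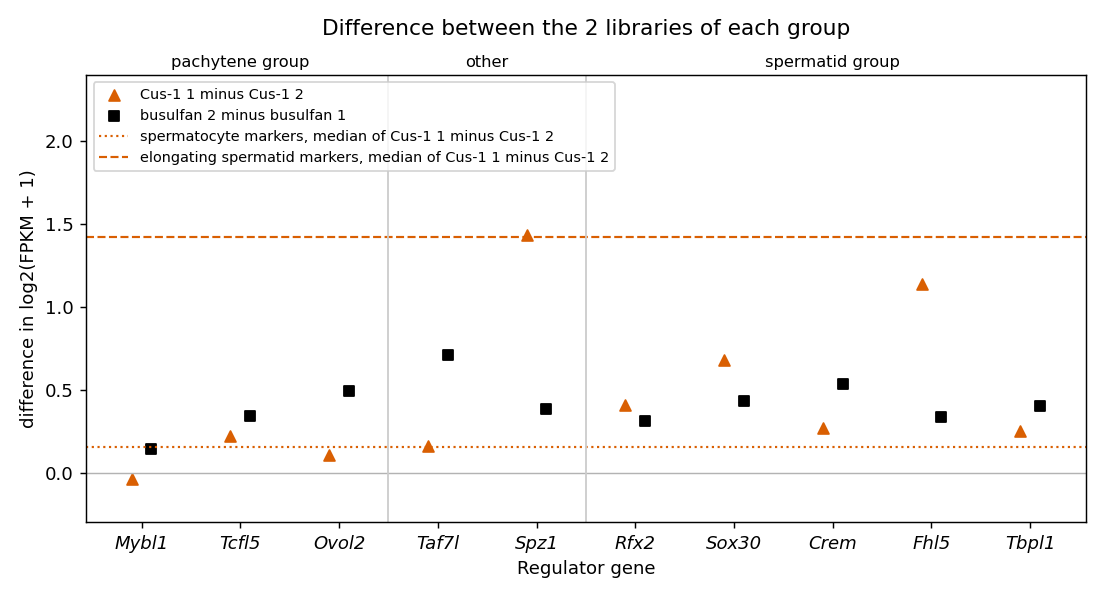
Difference in log2(FPKM + 1) between the 2 libraries of each group for each regulator, Cus-1 1 minus Cus-1 2 as triangles and busulfan 2 minus busulfan 1 as squares. The triangles rise from -0.04 (Mybl1) to 1.14 (Fhl5) and 1.44 (Spz1), and horizontal lines mark the medians of spermatocyte (0.16) and elongating spermatid (1.42) markers for Cus-1 1 minus Cus-1 2.

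Markers of the cells that carry these regulators moved with them. Germ cell markers were higher with Cus-1, the median log2 fold change being 0.95 for spermatocyte genes, among them Ldhc and Hspa2 (14 of 14 positive, summed FPKM of 1524 to 3747), and 1.15 for round spermatid genes, among them Tekt1 and Spag6l (12 of 12, 245 to 734). The 9 tested spermatogonial genes, among them Uchl1 and Kit, had a median of -0.18, with 4 positive and 5 negative. All 14 Sertoli markers were lower in both Cus-1 libraries (31.7% of all tested genes were), with a median of -0.73 and summed levels of 6606 and 4833 FPKM with busulfan and 3161 and 3897 FPKM with Cus-1. Fold changes were also negative for Leydig (10 of 10, summed FPKM of 13399 to 27481), macrophage (9 of 10, 490 to 859) and peritubular and stromal markers (10 of 10). Summed peritubular and stromal levels overlapped, at 898 and 566 FPKM with busulfan and 426 and 592 FPKM with Cus-1. In both Cus-1 libraries, 6 Leydig, 7 macrophage and 5 peritubular and stromal markers were lower than in either busulfan library. Over all tested genes, 9445 fold changes were negative and 10392 positive. Leaving out busulfan 1 lowered the spermatocyte median to 0.53. Leaving out Cus-1 1 lowered that of round spermatid genes to 0.75 and that of elongating spermatid genes from 1.18 to 0.47. The part of these cells in the differences of the regulators was not tested beyond the centring given next. The testis markers Clu, Insl3 and Tnp1 were present in all 4 libraries. Of the epididymis markers, Rnase10 was at 1.68 and 3.03 FPKM with busulfan and 2.80 and 2.62 FPKM with Cus-1, and Cst11 at 1.90 and 4.44 FPKM against 2.86 and 0.39 FPKM, so both overlapped between the groups.

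Scaling to a cell type therefore changed what the fold changes showed. With each library centred on the median of the Sertoli markers, all 10 regulators passed the adjusted threshold (limma adjusted p between 0.0369 and 0.0490, median log2 fold change 1.51), as did 30.4% of all tested genes in either direction. That list was itself lower with Cus-1, and centring on it moved the median of all tested genes from 0.04 to 0.69. With each library centred on the spermatocyte markers, the median of all tested genes was -0.81 and that of the regulators 0.02. Then 5 regulators were positive (Fhl5 0.43, Sox30 0.27, Spz1 0.23, Rfx2 0.11, Tcfl5 0.06) and 5 negative (Mybl1 -0.44, Taf7l -0.13, Ovol2 -0.12, Crem -0.09, Tbpl1 -0.02), with SE of 0.50 to 0.56. None of the 10 had an unadjusted limma p under 0.05 in this setting, against 0.237% of all tested genes higher and 30.8% lower, and the wide SE leaves differences of either sign possible.

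Most of the regulators have related genes, many of them expressed more widely, and a chosen relative was compared within each library, where scaling cancels. The ratios hold only for the relatives chosen. Of the 19 tested relatives, 8 had a negative log2 fold change and 11 a positive one. Among the positive ones were Rfx4 (1.65), Fhl4 (0.92), Taf7l2 (0.83) and Atf1 (0.53). Ratios to Rfx4, Fhl4, Taf7l2 and Atf1 were not taken. Fhl5 was lower than its relative Fhl1 in the busulfan libraries, at 0.385 and 0.687 times its FPKM, and higher in the Cus-1 libraries, at 3.06 and 1.27 times. Sox30 went the same way against Sox9, a Sertoli cell factor, at 0.424 and 0.881 times with busulfan and 3.37 and 1.86 times with Cus-1. In both pairs the relative was lower with Cus-1 (log2 fold change -0.57 for Fhl1 and -0.78 for Sox9), so the ratios moved from both sides. Crem was 4.82 and 6.83 times Creb1 with busulfan and 14.2 and 10.2 times with Cus-1, Creb1 being at -0.27 on the log2 scale.

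In other pairs the ratio shifted less. Tbpl1 was 2.58 and 2.96 times Tbp with busulfan and 2.93 and 2.66 times with Cus-1, so the ratios of the groups overlapped, and Tbp, the general TATA-binding protein, had a log2 fold change of 0.80 (SE 0.15), close to the 0.82 of Tbpl1. Rfx2 was 12.7 and 13.4 times Rfx3 with busulfan and 14.0 and 18.8 times with Cus-1, without overlap between the groups. Its ratio to another relative, Rfx4, was not taken, and Rfx4 had a larger log2 fold change (1.65) than Rfx2 (0.96). Ovol2 was 9.44 and 10.5 times Ovol1 with busulfan against 10.03 and 13.7 times with Cus-1, and these ratios overlapped. Rfx3 was at only 2.27 to 5.24 FPKM and Ovol1 at 2.59 to 5.06 FPKM. Taf7l was 2.05 and 3.02 times Taf7 with busulfan and 3.83 and 3.34 times with Cus-1. The ratio of Mybl1 to Mybl2, which serves dividing cells, was 10.1 in busulfan 1 and between 4.92 and 5.72 in the other libraries, with Mybl2 at only 1.55 to 3.93 FPKM.

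**Figure D4:**
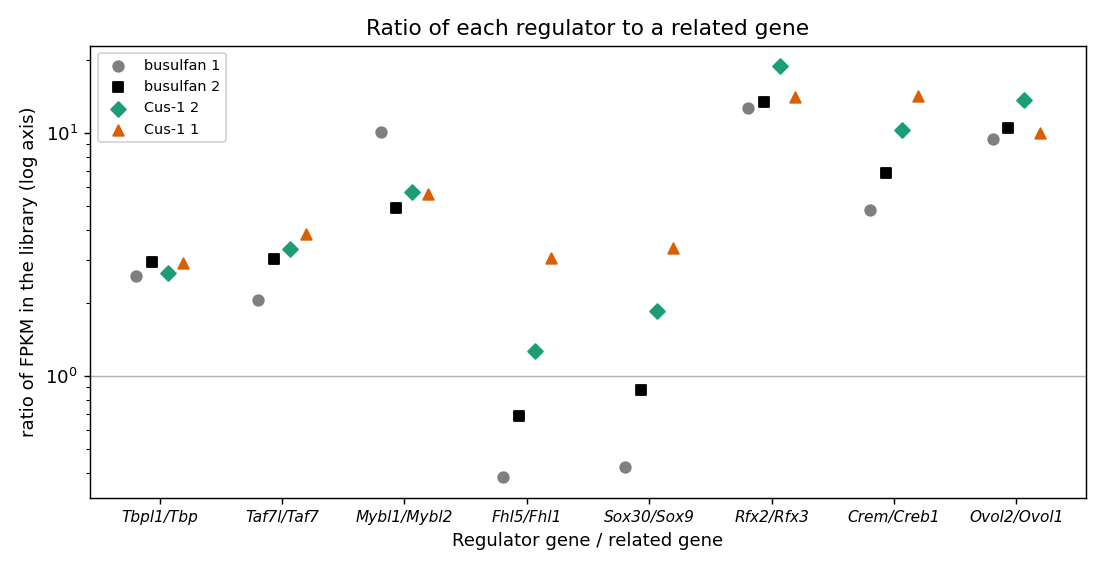
Ratio of the FPKM of each regulator to that of a related gene within each library, on a log axis, with 1 point per library and a line at equal levels. The ratios of Fhl5 to Fhl1 and of Sox30 to Sox9 lie below the line with busulfan and above it with Cus-1, while those of Tbpl1 to Tbp (2.58 to 2.96) overlap between the groups.

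Over all 19 tested relatives the median log2 fold change was 0.21, with 11 positive and 8 negative, 9 above and 6 below both busulfan libraries in each Cus-1 library, and 0 past the adjusted threshold. Those counts are near the 36.6% and 31.7% of all tested genes. Rfx3 and Ovol1 are also on the list of partners and other germ cell regulators described below, so both summaries count them. The median was 0.11 without busulfan 1 and -0.0004 with a filter of 5 FPKM, so the list as a whole had no settled direction. Rfx4 had the largest fold change among them, 1.65 (SE 0.34, limma adjusted p = 0.152), from 9.21 and 10.3 FPKM with busulfan to 46.2 and 23.3 FPKM with Cus-1. That is larger than the value of any of the 10 regulators, including its relative Rfx2, though that difference was not tested. Fhl4, the most abundant relative, was at 285 and 385 FPKM with busulfan and 723 and 547 FPKM with Cus-1, above Fhl5 in every library. Taf7l2 was at 0.83 (SE 0.22) and Atf1 at 0.53 (SE 0.17), while Fhl2 (-0.80), Sox4 (-0.85) and Sox8 (-0.73) were on the other side. Fold changes were small for Rfx5 (0.01), Rfx7 (-0.01), Taf7 (0.21), Fhl3 (-0.22) and Rfx1 (0.25), and the fold changes of Rfx3, Mybl2 and Ovol1 were 0.51, 0.53 and 0.40.

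The other germ cell regulators and the partners of the 10 genes mostly lay on the same side. Of 30 listed, 29 were tested, with a median log2 fold change of 0.80, 22 of them above and 1 below both busulfan libraries in each Cus-1 library, and 13 with an unadjusted limma p under 0.05, all higher, and 0 past the adjusted threshold. Over all tested genes 36.6% lay above, 31.7% lay below and 18.0% were higher at that p. Dmrtb1, which controls the entry into meiosis, was the most abundant, at 131 and 221 FPKM with busulfan and 304 and 286 FPKM with Cus-1. Kctd19, which acts with ZFP541 in pachytene chromatin, had a log2 fold change of 0.98 (SE 0.25). The smallest p values belonged to the POU factor gene Pou5f2 (0.997, SE 0.15, limma adjusted p = 0.152) and to Chd5, a chromatin remodeller of spermatids (1.54, SE 0.34, limma adjusted p = 0.152).

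Among partners chosen after their values were seen, Kif17, whose motor protein carries FHL5 out of the spermatid nucleus, was at 6.32 and 8.01 FPKM with busulfan and 31.7 and 13.1 FPKM with Cus-1. Like Fhl5 it was highest in Cus-1 1 (log2 fold change 1.40, SE 0.43). Gtf2a1l, the germ cell form of a TFIIA subunit, was at 47.3 and 65.8 FPKM with busulfan and 119 and 96.4 FPKM with Cus-1 (0.93, SE 0.22). Brwd1 (0.10), Taf4b (0.09) and Hsf2 (0.12) had small fold changes, and Dmrt1 (-0.18) and Foxj3 (-0.25) were negative. Leaving out busulfan 1 brought the median of the 29 genes to 0.43.

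Genes known to depend on these regulators were read as a description, beside the regulators in the same libraries. All 7 late spermatid genes that need CREM were higher in both Cus-1 libraries, as were 36.6% of all tested genes, with log2 fold changes of 1.03 to 1.35 (median 1.17), against 0.76 for Crem and 1.28 for Fhl5, and all 7 are also on the elongating spermatid list. Their summed level was 3077 and 3175 FPKM in busulfan 1 and 2, 11543 FPKM in Cus-1 1 and 4162 FPKM in Cus-1 2. Crem itself was only 1.21 times higher in Cus-1 1 than in Cus-1 2, while Fhl5 was 2.25 times higher. Odf1, of the outer dense fibres, had a log2 fold change of 1.29 (SE 0.46), Smcp, of the sperm mitochondrial capsule, 1.35 (SE 0.49), Tnp1 1.17 (SE 0.49) and Prm1 1.03 (SE 0.53). Leaving out Cus-1 1 took the median of the 7 to 0.45, while leaving out Cus-1 2 took it to 1.92, and Odf1 and Smcp were the 2 with an unadjusted limma p under 0.05.

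The 12 piRNA pathway genes of the A-MYB programme had a median log2 fold change of 0.86, against 0.95 for the spermatocyte markers, with which they share Piwil1, and 0.40 for Mybl1. Of these, 11 had each Cus-1 library above both busulfan libraries, and 9 had an unadjusted limma p under 0.05, all-gene shares for higher values being 36.6% and 18.0%. The median of the 12 was 0.55 once busulfan 1 was left out. Mael, whose promoter is shown above with its MYB core, had a log2 fold change of 0.90 (SE 0.23), Tdrd6, a scaffold of germ granules, 0.72 (SE 0.19), and Henmt1, the enzyme that protects the 3′ end of piRNAs, 1.06 (SE 0.23). The summed level of the list was 609 and 883 FPKM with busulfan and 1458 and 1239 FPKM with Cus-1. It was therefore closer between the Cus-1 libraries than the late spermatid genes were. So were Tcfl5 and Ovol2, but also the spermatid regulators Tbpl1 and Crem, at 1.19 and 1.21 times higher in Cus-1 1 than in Cus-1 2. Whether the difference between Mybl1 and this list is larger than the error of both was not tested.

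Counting error was small beside most of these differences. From the low values of the table, depth was estimated as 12.4 to 13.9 M fragments per library. The regulator with the fewest fragments, Mybl1, then had about 158 in its lowest library, which puts counting error at up to about 7.96% for these genes. Summed FPKM was 726041 to 742689 per library. Over the tested genes, Pearson r of log2 values was 0.961 between busulfan 2 and Cus-1 2 and also between the 2 busulfan libraries, and genes are not independent replicates.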

How the data were processed

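Gene expression was measured by RNA sequencing of mouse testis in 4 libraries, 2 per group. The authors deposited FPKM values, to 2 decimals, for every gene in each library. They used genome build mm10, per the submitters' processing notes. An aligner, counter, annotation or strand setting is not given in the sources used here. Table columns were matched to samples by library name, and groups come from the source label. Of 45582 rows, 46 were blank and 910 had no gene name (0.641% to 0.688% of summed FPKM), and these were left out. For the 115 symbols on several rows, the row with the highest mean was used.

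A gene was tested when 2 or more libraries had at least 1 FPKM, which kept 19837 genes. The test was two-sided, on log2(FPKM + 1), which understates changes of low genes. It used limma 3.58.1 (R 4.3.3) with empirical Bayes and a mean-variance trend, and p-values were adjusted by Benjamini-Hochberg over the 19837 genes. The method was tested on simulated data with noise independent between genes, which does not cover shifts shared by many genes. Alternatives were another pseudocount, other filters, quantile normalization, scaling to the same sum, centring on Sertoli or spermatocyte markers, no trend, and leaving out each library. Gene positions are from GENCODE M21 and promoters from RefSeq (GRCm38.p6). Depth was estimated from FPKM multiplied by transcript length in genes with 1 transcript of 300 to 2000 bases, taking the lowest peak as 1 fragment. For the fewest fragments of a gene, its shortest coding transcript was used.

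The members and lists were chosen with earlier results of these data known. Named were all 10 regulators and the tested relatives, of the other lists the 2 most abundant genes and the 2 with the smallest p, and of marker lists the 2 most abundant. Other genes named from the partner, relative and target lists were chosen after their values were seen.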

Additional observations from a re-analysis of the deposited data

How the results depend on the processing

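The groups did not overlap for any of the 10 regulators. Leaving out a library, another pseudocount or filter, or no trend could therefore not change the sign of a fold change. All 10 regulators kept a positive fold change under 11 of the 12 alternatives, the exception being centring on spermatocyte markers. There Mybl1 was at -0.44, Ovol2 at -0.12, Taf7l at -0.13, Crem at -0.0853 and Tbpl1 at -0.0246, the median of the 10 was 0.0194, and 0 of them were higher at an unadjusted limma p under 0.05. Centring on Sertoli markers gave 10 regulators past the adjusted threshold and a median of 1.51. Both follow from the construction, since these marker lists differed between the groups themselves. Leaving out 1 library at a time gave 2 to 8 regulators at an unadjusted p under 0.05 (2 without busulfan 1, 5 without Cus-1 1), medians of 0.68 to 1.08 and 0 past the adjusted threshold. Over all tested genes, 3576 higher and 1975 lower ones had an unadjusted p under 0.05, against 2831 and 2697 with quantile normalization, 9432 and 73 centred on Sertoli markers, 47 and 6114 centred on spermatocyte markers, 1159 and 426 when busulfan 1 was left out, and 1438 and 616 when Cus-1 1 was left out. No paired analysis was possible because the labels give no shared replicate numbers or pairing. At the estimated depth, counting error of the 10 genes was at most about 7.96%, which is near the gap between the busulfan libraries for Mybl1 (15.7 and 17.4 FPKM).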
